A study of Homo sapiens with 4 samples.

Results

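Dihydroberberine, which is berberine, a plant alkaloid, in reduced form, was present on 2 of the 4 arrays of this series and absent from the other 2. The cells were A549, an established human lung adenocarcinoma line, grown with serum and harvested after 48 h. The arrays without dihydroberberine held RNA of untreated cells and of cells given 2 μmol/L sunitinib, a small inhibitor of receptor tyrosine kinases. The arrays with it held RNA of cells given 25 μmol/L dihydroberberine alone or together with 2 μmol/L sunitinib. Each condition was 1 RNA sample on 1 array, and the labels do not say whether the untreated cells received a vehicle. Every comparison below sets the mean of the 2 arrays with dihydroberberine against the mean of the 2 arrays without it, so that sunitinib was present on 1 array of each side. This mean difference can also be read as 2 pairs that share no array, dihydroberberine alone against untreated and the combination against sunitinib. Of 18132 genes with a symbol of their own, 10958 reached a floor at the median of the gene probe sets (a log2 level of 6.75) on at least 1 array and were kept. Levels are deposited log2 probe set values, and a difference of 1 is a 2-fold difference. Since no condition has a replicate, the differences below are given as descriptions with no test, and an additive fit of both drugs was an alternative only. An exact permutation of 2 arrays against 2 could not give a two-sided p below 0.333.

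Berberine and its reduced form are known as inhibitors of complex I of the mitochondrial respiratory chain and as activators of AMPK, the kinase that responds to a low energy charge. Several sensors connect such a state to transcription. MondoA, the product of MLXIP, pairs with MLX and binds carbohydrate response elements, E-box-like sequences arranged in pairs, when hexose phosphates accumulate in the cell. TXNIP and its relative ARRDC4 are its best known targets, and both encode alpha-arrestins that lower glucose uptake. SREBP factors drive the genes of cholesterol and fatty acid synthesis, and INSIG1 is both their target and their inhibitor. Immediate early genes such as EGR1 and the AP-1 subunits respond to MAP kinase signals and to serum response factor, which binds the CArG box.

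A gene was called when its mean difference was at least 1 in size and both dihydroberberine arrays lay on the same side of both other arrays. By this rule 65 genes were called higher, which is 0.593% of the genes kept, and 63 were called lower, which is 0.575%. Without the condition on size, both dihydroberberine arrays lay above both others for 2137 genes (19.5%) and below both for 2416 genes (22.0%). Every count of list members without overlap is to be read against these 2 shares. The median difference over all genes kept was -0.01. Among called genes whose probe sets at the floor all had the same sign, the 16 highest had mean differences from 3.45 (EGR1) to 1.67 (GDF15), and the 16 lowest from -4.13 (TXNIP) to -1.36 (LINC00473). The number called depended on single arrays. With the combination array left out, 101 genes were called higher and 306 lower. With the sunitinib array left out the counts were 86 and 134, with the dihydroberberine array left out 77 and 45, and with the untreated array left out 91 and 43. At the limit of the rule, STC2 (1.0005) and ANKRD29 (1.0025) were the last genes called higher, and SGK1 (0.9903) and GPCPD1 (0.9891) the first outside. PDK3 (-1.0021) and HAUS5 (-1.0033) were the last called lower, and HDAC4 (-0.9973) and SPC25 (-0.9954) the first outside. Without the untreated array the 4 last genes called were all under the size of a call, at 0.70 for STC2, 0.68 for ANKRD29, -0.62 for PDK3 and -0.58 for HAUS5. Of the called genes, 24 higher and 7 lower were called again under each alternative of filter, probe set rule, scaling or left-out array that kept them.

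The lowest of all genes was TXNIP, the thioredoxin-binding arrestin. Its level was 11.49 untreated and 12.14 with sunitinib against 7.06 with dihydroberberine and 8.30 with both drugs, a mean difference of -4.13 or 17.6-fold. Both dihydroberberine arrays lay more than 3 log2 units below both others (-3.19 between the nearest arrays), and the 5 probe sets of the gene that reached the floor gave differences from -4.13 to -2.82. ARRDC4, the arrestin most closely related to TXNIP, followed at 7.82 untreated and 8.62 with sunitinib against 5.12 with dihydroberberine and 6.93 with both drugs. Since 1 array lay under the floor, the fold of ARRDC4 is given as at least 2.6, against a measured difference of -2.19 (-1.29 without the dihydroberberine array). For both arrestins sunitinib cells had a higher level than untreated cells, and the pair with sunitinib still differed by -3.84 for TXNIP and -1.68 for ARRDC4. These were also the genes of largest difference among the 11 kept members of the list of MondoA, its partners and the arrestins, of which 3 did not overlap on the lower side and 3 on the higher side. Among all genes kept these shares were 22.0% and 19.5%. MLXIP itself read 9.86 untreated and 9.65 with sunitinib against 8.07 with dihydroberberine and 9.55 with both drugs, so its lower value came from the dihydroberberine array and the pair with sunitinib differed by only -0.10. ARRDC3, another arrestin, was on the opposite side at 8.59 untreated and 9.11 with sunitinib against 9.87 with dihydroberberine and 9.13 with both drugs, and HBP1, a transcriptional repressor, differed by 0.53. The list median was 0.14, and members lay on both sides.

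The stretches just before the start of both arrestin genes are shown because they hold the E-box-like letters in question. They were read from RefSeq promoters of assembly GRCh38.p14, run 5′ to 3′ on the strand of the gene and end at the base before its start. Capitals mark CACGNG on either strand. The stretch of TXNIP is chr1:145996580-145996699 (minus strand), and that of ARRDC4 chr15:97960483-97960702 (plus strand).
TXNIP: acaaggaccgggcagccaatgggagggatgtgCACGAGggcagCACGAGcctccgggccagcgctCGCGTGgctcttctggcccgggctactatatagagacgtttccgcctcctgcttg
ARRDC4: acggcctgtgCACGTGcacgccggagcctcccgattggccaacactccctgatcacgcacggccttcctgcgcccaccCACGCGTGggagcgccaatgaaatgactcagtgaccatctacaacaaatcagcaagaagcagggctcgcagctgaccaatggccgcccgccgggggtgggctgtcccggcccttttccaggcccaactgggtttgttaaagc
In TXNIP, CACGAG stands in a pair in the same orientation with 5 bases between. This arrangement, CACGNG followed by 5 bases and CACGNG, was searched on both strands in the 250 bases before the start. It was found in 12 of the 9081 kept genes with a promoter in the table (0.132%) and in 16 of all 27305 promoters (0.0586%), and among the called genes in TXNIP only. A single CACGNG was found in 37.3% of the kept genes. The paired form and the single form were searched after the values of TXNIP were known. The palindrome CACGTG, which the single form includes, was found in 9.01% of the kept genes.

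Of the 16 highest genes, the immediate early factor EGR1 came first. EGR1, a zinc finger transcription factor that growth signals induce, read 6.68 untreated and 6.23 with sunitinib against 11.62 with dihydroberberine and 8.20 with both drugs. The dihydroberberine array stood far above the rest, the combination array lay between, and the arrays without the drug lay under the floor. Against the floor EGR1 was at least 29.1-fold higher with dihydroberberine alone and at least 2.73-fold higher in the pair with sunitinib, and without the dihydroberberine array its mean difference was 1.75 in place of 3.45. FOSL1, an AP-1 subunit, read 7.79 untreated and 8.17 with sunitinib against 10.24 with dihydroberberine and 9.31 with both drugs (1.80, and 1.17 over all probe sets). JUN, its partner in AP-1, read 7.77 untreated and 7.64 with sunitinib against 9.47 with dihydroberberine and 8.29 with both drugs, with pair differences of 1.71 and 0.65. Its mean difference was under the size of a call over all its probe sets (0.91) and without the dihydroberberine array (0.59). MAFF, a small Maf factor, had a mean difference of 1.54 (0.93 over all probe sets), with both arrays without the drug under the floor. Of the 20 kept immediate early and AP-1 genes, 10 did not overlap on the higher side and 0 on the lower side. All genes kept had shares of 19.5% and 22.0%. The list median was 0.29 (0.31 alone, 0.24 with sunitinib). FOS, the AP-1 founder, overlapped at 0.16 and MYC at 0.06, values named after they were seen.

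Feedback genes of the MAP kinase pathway, which encode phosphatases and adaptors that damp ERK signals, held 5 called genes among 18 kept. Among all genes kept, 0.593% were called higher. DUSP5, the nuclear ERK phosphatase, read 9.66 untreated and 9.02 with sunitinib against 12.46 with dihydroberberine and 10.78 with both drugs. DUSP1, which acts on several MAP kinases, read 12.20 untreated and 11.73 with sunitinib against 14.08 with dihydroberberine and 12.96 with both drugs. PHLDA1 differed by 1.33, IER3, an early response gene, by 1.31, and DUSP6, the cytoplasmic ERK phosphatase, by 1.20. In each of these 5 genes the combination array was below the dihydroberberine array and above both arrays without the drug. Without the dihydroberberine array the difference was 0.66 for DUSP6, 0.75 for IER3, 0.83 for PHLDA1 and 0.99 for DUSP1, so the 2-fold size rested on that array, and DUSP5 differed by 1.44 in place of 2.28. Without the sunitinib array DUSP6 differed by 0.92 and IER3 by 0.98. In total 7 of the 18 did not overlap on the higher side and 1 on the lower side, with a median of 0.13. The shares among all genes kept were 19.5% and 22.0%. SPRY and SPRED adaptors, ETV factors and CCND1 were in the same list, and none of them was called.

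**Figure D1:**
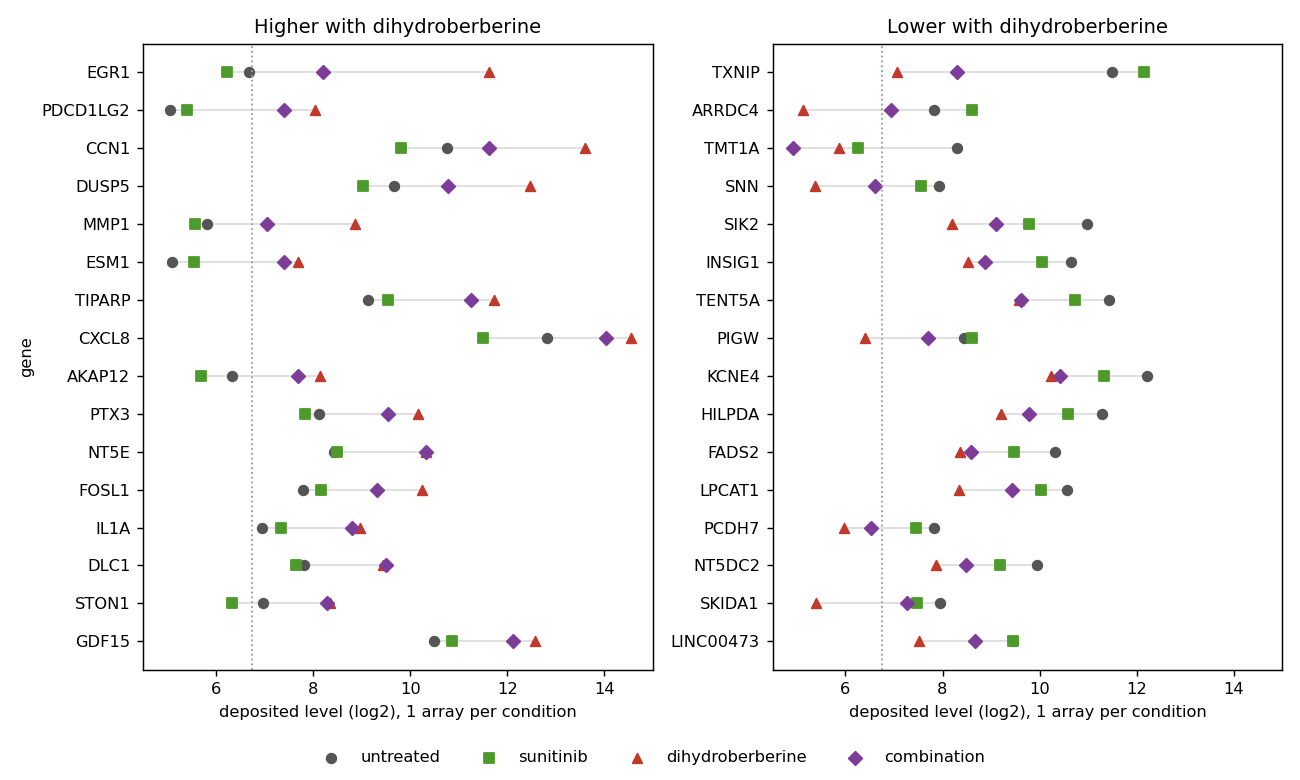
Deposited log2 level of the 16 genes with the highest and the 16 with the lowest mean difference among called genes whose probe sets at the floor all had the same sign, 1 point per array and condition, with the floor of 6.75 as a dotted line. In the left panel both dihydroberberine arrays lie to the right of both others and EGR1 spreads most, and in the right panel TXNIP stands apart with levels of 7.06 and 8.30 against 11.49 and 12.14.

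The lists of serum response factor targets and of targets of the Hippo pathway effector YAP held more members on the higher than on the lower side. For all genes kept the shares without overlap were 19.5% above and 22.0% below. CCN1, a matricellular protein, read 10.76 untreated and 9.81 with sunitinib against 13.60 with dihydroberberine and 11.62 with both drugs. CCN2, a close relative of CCN1, differed by 1.24. Without the dihydroberberine array CCN1 differed by 1.33 in place of 2.33 and CCN2 by 0.96, and without the sunitinib array CCN2 differed by 0.91. NT5E, the ectonucleotidase CD73, read 8.44 untreated and 8.50 with sunitinib against 10.33 with dihydroberberine and 10.32 with both drugs, and DLC1 read 7.81 untreated and 7.65 with sunitinib against 9.43 with dihydroberberine and 9.50 with both drugs (1.73, and 1.08 over all probe sets). For NT5E and DLC1 the values within each side lay close together, and sunitinib made little difference to either side. AXL, a receptor tyrosine kinase, read 7.21 untreated and 6.53 with sunitinib against 8.67 with dihydroberberine and 8.30 with both drugs (1.61, and 0.79 over all probe sets). Of 23 kept Hippo and YAP genes 9 did not overlap on the higher side and 3 on the lower side, and the pair medians were 0.01 alone and 0.41 with sunitinib. YAP1 itself was at -0.20 and overlapped, a value named after it was seen. Of 16 kept genes of serum response factor and the cytoskeleton 9 did not overlap on the higher side and 1 on the lower side, with a median of 0.18. FHL2, a LIM-domain protein, read 6.10 untreated and 6.30 with sunitinib against 7.56 with dihydroberberine and 7.24 with both drugs and was at least 1.57-fold higher. TPM4, a tropomyosin, read 11.02 untreated and 11.31 with sunitinib against 12.23 with dihydroberberine and 12.15 with both drugs (0.98 without the dihydroberberine array and 0.87 without the untreated array), and ACTA2, the smooth muscle actin, differed by 0.77, while MICAL2, an actin-oxidising enzyme, differed by -0.86. AKAP12, a scaffold of protein kinase A, read 6.32 untreated and 5.69 with sunitinib against 8.14 with dihydroberberine and 7.69 with both drugs. Both arrays without the drug lay under the floor, and AKAP12 was at least 2.24-fold higher.

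The CArG box, searched after the values were known, was found before the start of 4 of the 44 called higher genes with a promoter in the table (9.09%), against 0.991% of the kept genes and 1.14% of all promoters, and of 0 of the 51 called lower genes. The 4 stretches are shown with the box in capitals, from EGR1 at chr5:138465359-138465478 (plus strand), AKAP12 at chr6:151239847-151239966 (plus), FHL2 at chr2:105438514-105438633 (minus) and TPM4 at chr19:16067348-16067537 (plus).
EGR1: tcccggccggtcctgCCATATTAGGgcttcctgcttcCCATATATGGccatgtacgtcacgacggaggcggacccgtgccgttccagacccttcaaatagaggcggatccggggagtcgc
AKAP12: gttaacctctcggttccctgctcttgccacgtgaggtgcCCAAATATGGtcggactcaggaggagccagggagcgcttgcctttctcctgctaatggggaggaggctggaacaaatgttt
FHL2: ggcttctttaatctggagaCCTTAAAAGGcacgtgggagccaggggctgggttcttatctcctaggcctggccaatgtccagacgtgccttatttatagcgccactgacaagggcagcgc
TPM4: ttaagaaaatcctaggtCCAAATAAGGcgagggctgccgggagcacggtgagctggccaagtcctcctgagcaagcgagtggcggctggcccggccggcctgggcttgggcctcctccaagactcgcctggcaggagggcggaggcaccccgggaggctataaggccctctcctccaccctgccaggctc
EGR1 held 2 boxes in this window and the other genes 1 each. A match is a run of letters and not a measured binding site.

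NF-kB and secreted inflammatory genes formed the list of highest median, 0.47 over 16 kept genes against -0.01 over all genes. Of these 16, 8 did not overlap on the higher side and 2 on the lower side, against 19.5% and 22.0% of all genes kept. CXCL8, the neutrophil chemokine interleukin 8, read 12.83 untreated and 11.49 with sunitinib against 14.55 with dihydroberberine and 14.04 with both drugs. Its sunitinib array was the lowest, so the pair with sunitinib differed more (2.55) than the pair without (1.72). PTX3, a long pentraxin, read 8.12 untreated and 7.83 with sunitinib against 10.17 with dihydroberberine and 9.55 with both drugs, and IL1A, interleukin 1 alpha, 6.95 untreated and 7.33 with sunitinib against 8.97 with dihydroberberine and 8.81 with both drugs. NFKBIZ, an inducible nuclear IkB protein, was on the lower side at -0.77, with both dihydroberberine arrays under the floor. PDCD1LG2, the ligand PD-L2 of the checkpoint receptor PD-1, was not in a list and read 5.05 untreated and 5.40 with sunitinib against 8.05 with dihydroberberine and 7.41 with both drugs. Against the floor PDCD1LG2 was at least 1.97-fold higher, and over all probe sets it differed by 1.38 in place of 2.50. ESM1, a secreted proteoglycan of endothelium, read 5.10 untreated and 5.55 with sunitinib against 7.69 with dihydroberberine and 7.41 with both drugs and was at least 1.73-fold higher.

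AP-1 letters are shown for CXCL8 and IL1A because both are among the 4 called higher genes, of 44 with a promoter, that hold TGANTCA on either strand (9.09%, against 3.82% of the kept genes, 6.60% of all promoters and 2 of the 51 called lower genes). The stretches are chr4:73740419-73740568 (plus strand) and chr2:112784494-112784553 (minus strand), with the motif in capitals.
CXCL8: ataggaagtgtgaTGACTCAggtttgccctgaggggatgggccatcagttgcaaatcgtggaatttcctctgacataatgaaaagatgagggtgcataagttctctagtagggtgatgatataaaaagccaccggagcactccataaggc
IL1A: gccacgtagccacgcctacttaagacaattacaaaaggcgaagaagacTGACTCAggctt
The share in all promoters lies between that of the kept genes and that of the called higher genes, which is a count of 4.

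The proteases MMP1 and PLAU and the receptor PLAUR were called higher. MMP1, the interstitial collagenase, read 5.83 untreated and 5.57 with sunitinib against 8.87 with dihydroberberine and 7.05 with both drugs and was at least 2.31-fold higher, with bounds of 4.34 alone and 1.23 in the pair with sunitinib. PLAU, the urokinase plasminogen activator, read 10.95 untreated and 9.94 with sunitinib against 11.85 with dihydroberberine and 11.42 with both drugs, and its receptor PLAUR differed by 1.04. Without the sunitinib array PLAU and PLAUR differed by 0.68 and 0.69, without the dihydroberberine array by 0.98 and 0.60, and over all probe sets PLAUR differed by 0.91. PLAT, the tissue-type activator, differed by 0.75. In the list of epithelial, mesenchymal and matrix genes 9 of 16 kept members did not overlap on the higher side and 1 on the lower side. That list holds genes of opposite states, so its median of 0.21 gives no direction of a transition. Among all genes kept, 19.5% did not overlap above and 22.0% below. Vimentin (VIM) differed by 0.08, and the epithelial keratins KRT18 and KRT19 by 0.12 and 0.15. Of 10 kept TGF-beta targets 4 did not overlap on the higher side and 0 on the lower side, led by PMEPA1, a SMAD inhibitor (0.95), ID3 (0.60) and TGIF1 (0.47). ADA, adenosine deaminase, differed by 0.90 and ADK, adenosine kinase, by 0.43, so that 3 of 8 kept genes of extracellular nucleotide handling, with NT5E, did not overlap on the higher side and 1, the transporter SLC29A1 (-0.35), on the lower side.

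TIPARP, the ADP-ribosyltransferase PARP7 that the aryl hydrocarbon receptor induces and that represses it in turn, read 9.13 untreated and 9.54 with sunitinib against 11.72 with dihydroberberine and 11.26 with both drugs. The other classical targets of the receptor differed less. CYP1B1, a cytochrome P450, read 12.32 untreated and 13.01 with sunitinib against 13.46 with dihydroberberine and 13.45 with both drugs. CYP1A1, the best known target, read 6.19 untreated and 6.37 with sunitinib against 7.03 with dihydroberberine and 6.99 with both drugs. Both arrays without the drug lay under the floor, and against the floor the fold was at least 1.2. Background probes with 20 G or C bases read 6.70 untreated and 6.99 with sunitinib against 7.15 with dihydroberberine and 6.95 with both drugs. CYP1A1 was thus no clearer than background on the dihydroberberine arrays. Of the 10 kept genes 4 did not overlap on the higher side and 1 on the lower side, with a median of 0.19. All genes kept had shares of 19.5% and 22.0%. AHRR, the receptor's repressor and a standard target, was at -0.05 and overlapped, a value named after it was seen. The stretch before the start of TIPARP, chr3:156674370-156674589 (plus strand), is shown with the core of the xenobiotic response element, GCGTG, in capitals, which reads CACGC on the strand printed.
TIPARP: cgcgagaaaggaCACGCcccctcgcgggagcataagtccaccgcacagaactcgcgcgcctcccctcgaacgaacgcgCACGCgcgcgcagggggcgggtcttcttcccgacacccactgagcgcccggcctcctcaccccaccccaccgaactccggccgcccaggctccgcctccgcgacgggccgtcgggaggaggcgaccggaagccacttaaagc
This core was found in 46.1% of the kept genes and 31.9% of all promoters, so it is a common sequence.

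Stress genes were mixed. As a reference for the counts here, 19.5% of all genes kept did not overlap on the higher side and 22.0% on the lower side. GDF15, a stress-induced cytokine of the TGF-beta family, read 10.49 untreated and 10.87 with sunitinib against 12.58 with dihydroberberine and 12.12 with both drugs. GADD45B, a stress sensor upstream of p38, read 10.35 untreated and 10.11 with sunitinib against 12.72 with dihydroberberine and 10.78 with both drugs, high on the dihydroberberine array and 0.55 above the arrays without the drug when that array was left out. Of 20 kept p53 targets 8 did not overlap on the higher side and 0 on the lower side (median 0.21). CDKN1A, the cell cycle inhibitor p21, read 10.27 untreated and 10.54 with sunitinib against 10.88 with dihydroberberine and 11.34 with both drugs. MDM2, the main feedback target of p53, was at 0.04 and overlapped, a value named after it was seen. Of 27 kept genes of the ATF4 pathway and integrated stress response, 7 did not overlap on the higher side and 2 on the lower side. Their medians were 0.41 alone and -0.02 with sunitinib. DDIT3, the factor CHOP, read 8.24 untreated and 8.26 with sunitinib against 9.48 with dihydroberberine and 8.38 with both drugs, high on 1 array only, and STC2, a secreted glycoprotein, read 9.11 untreated and 9.71 with sunitinib against 10.68 with dihydroberberine and 10.13 with both drugs. Without the dihydroberberine array or the untreated array STC2 differed by 0.73 and 0.70, and over all probe sets by 0.68. ATF4 itself was at 0.06. MCL1, an anti-apoptotic relative of BCL2, read 12.05 untreated and 12.16 with sunitinib against 13.09 with dihydroberberine and 13.25 with both drugs (0.87 over all probe sets, 0.99 without the combination array). In the BCL2 family and caspases 3 of 16 kept genes did not overlap on the higher side, with BIRC2 at 0.73 and BCL2L1 at 0.54. On the lower side 2 did not overlap, with BIRC5, survivin, at -0.67. Neither count passed the share over all genes kept. STON1, an endocytic adaptor, read 6.97 untreated and 6.32 with sunitinib against 8.35 with dihydroberberine and 8.30 with both drugs.

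Sterol genes were on the lower side. INSIG1, which holds the SREBP escort protein SCAP in the endoplasmic reticulum, read 10.65 untreated and 10.06 with sunitinib against 8.52 with dihydroberberine and 8.89 with both drugs. It was the only called gene of the list. SQLE, squalene epoxidase, read 10.42 untreated and 10.18 with sunitinib against 9.29 with dihydroberberine and 9.75 with both drugs. HMGCS1, the cytosolic HMG-CoA synthase, read 8.52 untreated and 8.36 with sunitinib against 7.49 with dihydroberberine and 7.90 with both drugs, and IDI1, isopentenyl diphosphate isomerase, differed by -0.72. Of 19 kept genes of cholesterol synthesis and uptake 14 did not overlap on the lower side and 2 on the higher side. All genes kept had shares of 22.0% and 19.5%. The median was -0.46, and -0.56 and -0.33 in the pairs. SC5D and STARD4, a sterol carrier, were the 2 members on the higher side.

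In fatty acid synthesis 9 of 16 kept genes did not overlap on the lower side and 2 on the higher side. Among all genes kept these shares were 22.0% and 19.5%. FADS2, the delta-6 desaturase, read 10.32 untreated and 9.48 with sunitinib against 8.36 with dihydroberberine and 8.59 with both drugs. ELOVL6, the elongase of palmitate, read 9.47 untreated and 9.32 with sunitinib against 8.04 with dihydroberberine and 8.74 with both drugs, and its difference was -0.66 without the dihydroberberine array and -0.93 without the untreated array. SCD, the stearoyl-CoA desaturase, read 13.04 untreated and 13.05 with sunitinib against 11.96 with dihydroberberine and 12.83 with both drugs, with most of its difference on the dihydroberberine array. FASN, fatty acid synthase, differed by -0.62. The median was -0.24, with -0.48 alone and -0.06 with sunitinib. LPCAT1, a lysophosphatidylcholine acyltransferase, read 10.57 untreated and 10.03 with sunitinib against 8.34 with dihydroberberine and 9.44 with both drugs, and HILPDA, an inhibitor of lipolysis on lipid droplets, 11.28 untreated and 10.59 with sunitinib against 9.20 with dihydroberberine and 9.79 with both drugs. LPCAT1 differed by -0.87 without the dihydroberberine array. Fatty acid oxidation and PPAR targets had 2 of 13 members apart in each direction, which passed neither share. CPT2, a carnitine palmitoyltransferase, was at -0.45.

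Of the AMPK and mTOR list 3 of 18 kept genes did not overlap on the higher side and 4 on the lower side, near the shares over all genes. Those shares were 19.5% above and 22.0% below. SIK2, a salt-inducible kinase related to AMPK, read 10.98 untreated and 9.77 with sunitinib against 8.19 with dihydroberberine and 9.11 with both drugs, and its 5 probe sets at the floor ranged from -1.72 to -0.41 (-1.01 over all probe sets), and its difference was -1.12 without the untreated array. PRKAA1, the AMPK catalytic subunit alpha 1, read 7.53 untreated and 7.31 with sunitinib against 8.69 with dihydroberberine and 7.81 with both drugs. RPTOR, the mTOR partner raptor, had a mean difference of -0.65 (-1.23 alone and -0.08 with sunitinib). Of 36 kept subunits of complex I 18 did not overlap on the lower side and 2 on the higher side, by small amounts, with a median of -0.14. NDUFC2 differed by -0.78 but by -0.06 in the pair with sunitinib, and NDUFS1 was on the higher side at 0.35. Of 27 kept genes of glycolysis and hypoxia 11 did not overlap on the lower side and 3 on the higher side. EGLN3, an oxygen-sensing prolyl hydroxylase, was at -1.07, with both dihydroberberine arrays under the floor and differences of -0.65 and -0.74 without the dihydroberberine or the untreated array, and -0.64 over all probe sets. ALDOC, an aldolase, read 11.03 untreated and 9.71 with sunitinib against 9.52 with dihydroberberine and 9.25 with both drugs, and PFKFB4, which sets fructose 2,6-bisphosphate, 8.08 untreated and 7.34 with sunitinib against 6.99 with dihydroberberine and 6.69 with both drugs. NDRG1, another hypoxia gene, was called in the other direction and read 8.34 untreated and 8.16 with sunitinib against 9.44 with dihydroberberine and 9.58 with both drugs (0.72 over all probe sets).

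**Figure D2:**
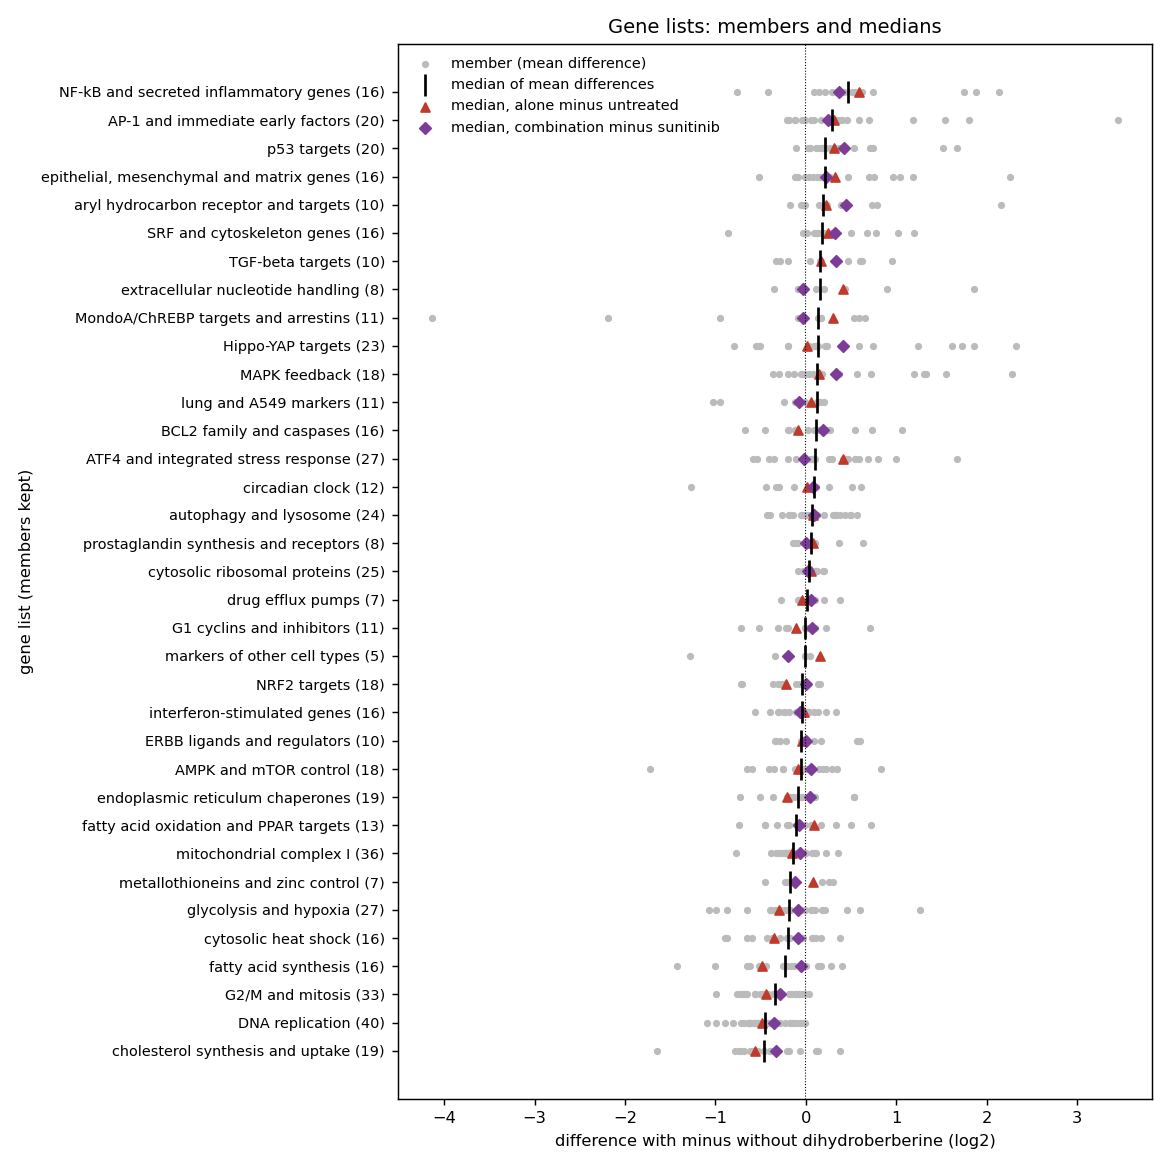
Mean difference with minus without dihydroberberine (log2) of every kept member (grey points) of the 35 gene lists, with the list median (black bar) and the medians of the pair without sunitinib (triangles) and with it (diamonds); the dotted line is the median of all genes kept. The median is highest for inflammatory genes at 0.47 and lowest for cholesterol genes at -0.46, and the TXNIP and EGR1 points lie farthest out.

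Genes of cell division lay on the lower side. Of 40 kept DNA replication genes 31 did not overlap on the lower side and 0 on the higher side, against 22.0% and 19.5% of all genes kept, and the median was -0.46 (-0.49 alone, -0.36 with sunitinib). Differences were mostly under 2-fold. FEN1, the flap endonuclease and the only called member, read 11.30 untreated and 11.08 with sunitinib against 9.84 with dihydroberberine and 10.34 with both drugs, and it differed by -0.85 without the dihydroberberine array and by -0.99 without the untreated array. TK1, thymidine kinase, read 12.01 untreated and 11.70 with sunitinib against 11.20 with dihydroberberine and 10.72 with both drugs, and GINS1, a subunit of the replicative helicase, 11.15 untreated and 10.88 with sunitinib against 9.94 with dihydroberberine and 10.49 with both drugs. CCNE2, a G1/S cyclin, was at least 1.6-fold lower. Of 33 kept G2/M and mitosis genes 20 did not overlap on the lower side and 0 on the higher side, with a median of -0.34. KIF20A, a mitotic kinesin, read 10.97 untreated and 10.25 with sunitinib against 9.75 with dihydroberberine and 9.49 with both drugs. FOXM1, a transcription factor of these genes, read 9.25 untreated and 8.93 with sunitinib against 8.15 with dihydroberberine and 8.50 with both drugs, and CCNB1, cyclin B1, 12.47 untreated and 12.11 with sunitinib against 11.72 with dihydroberberine and 11.47 with both drugs. MKI67 and CENPE, also mitotic genes, were at -0.01 and 0.03, values named after they were seen. In KIF20A, FOXM1 and CCNB1 sunitinib cells were also below untreated cells, and the lowest of the 4 arrays was the combination for KIF20A and CCNB1 and dihydroberberine alone for FOXM1. Of 11 kept G1 cyclins and inhibitors 1 did not overlap on the higher side, CDKN1A, and 3 on the lower side, CDKN2D (-0.72), CDK4 (-0.52) and CCND3 (-0.31).

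Mitotic genes are known for a promoter with the CHR element, TTTGAA, and the CCAAT box. On either strand of the 250 bases before the start, 51.9% of the 27 kept mitosis genes with a promoter in the table held TTTGAA and 70.4% held CCAAT, against 8.38% and 34.9% of the kept genes. In the 34 DNA replication genes with a promoter these shares were 2.94% and 52.9%. The stretch of PLK1, a mitotic kinase, is shown as an example with both motifs in capitals (chr16:23678799-23678888, plus strand). The gene was picked for its compact promoter after its values were seen, and its mean difference was -0.57.
PLK1: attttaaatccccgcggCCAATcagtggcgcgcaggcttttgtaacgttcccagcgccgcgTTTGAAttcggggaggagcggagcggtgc
These motifs describe the list, which was chosen by function. Among called genes with a promoter, TTTGAA was held by 21.6% of the 51 lower and 15.9% of the 44 higher genes. CCAAT was held by 49.0% and 34.1% of them. A link of these motifs to the drug was not tested.

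Other genes among the 16 lowest came from several functions. TMT1A, a thiol methyltransferase, read 8.29 untreated and 6.26 with sunitinib against 5.87 with dihydroberberine and 4.93 with both drugs. Sunitinib cells were already under the floor, so no fold is given for the pair with sunitinib, and without the untreated array the difference was -0.86. SNN, the small membrane protein stannin, read 7.93 untreated and 7.55 with sunitinib against 5.37 with dihydroberberine and 6.62 with both drugs, at least 1.99-fold lower (-0.64 over all probe sets, -1.13 without the dihydroberberine array). TENT5A, a poly(A) polymerase, read 11.42 untreated and 10.73 with sunitinib against 9.58 with dihydroberberine and 9.62 with both drugs. KCNE4, a regulatory subunit of potassium channels, read 12.21 untreated and 11.32 with sunitinib against 10.24 with dihydroberberine and 10.41 with both drugs, and NT5DC2 9.95 untreated and 9.18 with sunitinib against 7.87 with dihydroberberine and 8.49 with both drugs, both at -0.99 without the untreated array. PIGW, an enzyme of GPI anchor synthesis, read 8.44 untreated and 8.61 with sunitinib against 6.41 with dihydroberberine and 7.70 with both drugs, and the non-coding transcript LINC00473 9.45 untreated and 9.45 with sunitinib against 7.52 with dihydroberberine and 8.67 with both drugs. PCDH7, a protocadherin, was at least 1.85-fold lower and SKIDA1 at least 1.62-fold. SKIDA1 differed by -2.55 alone and -0.20 with sunitinib, and by -0.43 without the dihydroberberine array. That array also set the 2-fold size of PIGW (-0.82 without it) and LINC00473 (-0.78). Over all probe sets PCDH7 differed by -0.45, SKIDA1 by -0.40 and TMT1A by -0.64, all under the size of a call. PER2, a core repressor of the circadian clock, read 8.14 untreated and 7.96 with sunitinib against 6.42 with dihydroberberine and 7.13 with both drugs (-0.91 without the dihydroberberine array and -0.12 over all probe sets), while its activator BMAL1 (0.51) and the nuclear receptor NR1D2 (0.61) were on the higher side, so that 2 of 12 kept clock genes did not overlap above and 3 below. These clock counts are near the shares over all genes kept, 19.5% and 22.0%.

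In the remaining lists no gene was called. Their counts stand against shares over all genes kept of 19.5% above and 22.0% below, and many lie near or under these. Of 16 kept cytosolic heat shock genes 7 did not overlap on the lower side and 3 on the higher side, with the co-chaperones DNAJA1 at -0.90 and BAG3 at -0.59 and the small heat shock protein HSPB8 at -0.88. Of 18 kept NRF2 targets 6 did not overlap on the lower side, with OSGIN1 (-0.72) and HMOX1, heme oxygenase 1 (-0.71), and 1 on the higher side. Endoplasmic reticulum chaperones had 2 of 19 apart in each direction, ERBB ligands and regulators 2 of 10 in each, metallothioneins 1 of 7 in each, and interferon-stimulated genes 0 of 16 above and 2 below. EPGN, an EGF receptor ligand that was called higher (1.35), was not a member of the ERBB list. Of 24 kept autophagy and lysosome genes 8 did not overlap on the higher side, led by the receptor OPTN (0.56), and 3 on the lower side. Drug efflux pumps had 1 of 7 above and 0 below, and prostaglandin genes 0 of 8 above and 3 below. Cytosolic ribosomal proteins, a reference of high level, had 12 of 25 above and 1 below at a median of only 0.04. No overlap alone is therefore reached by small differences.

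**Figure D3:**
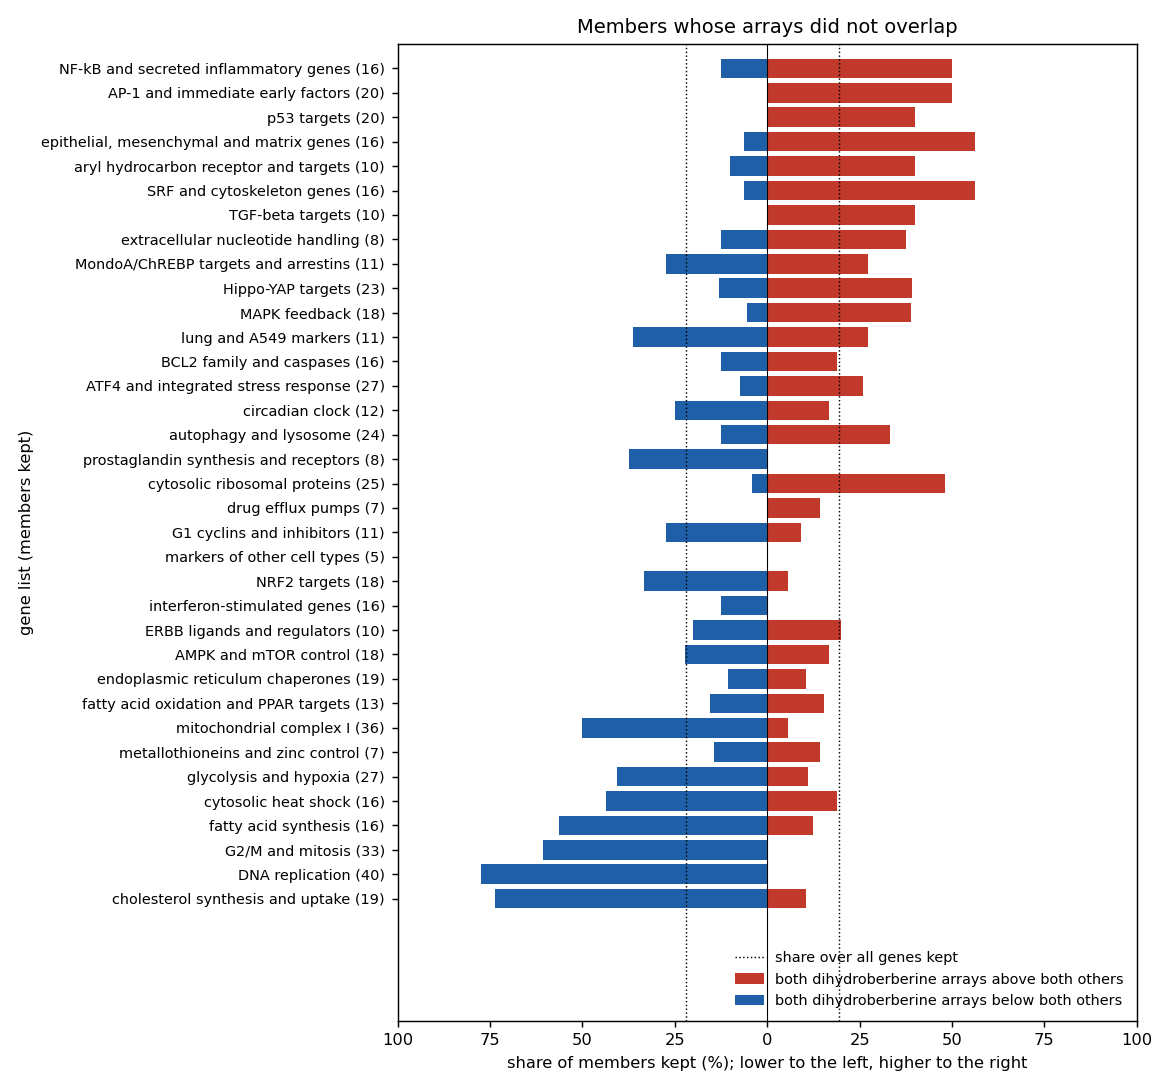
Share of the kept members of each list (%) for which both dihydroberberine arrays lay above both others (red, to the right) or below both (blue, to the left), with dotted lines at the shares over all 10958 genes kept (19.5% and 22.0%). DNA replication (31 of 40), cholesterol (14 of 19) and mitosis genes (20 of 33) reach farthest to the left, and ribosomal proteins (12 of 25) pass the line on the right with very small differences.

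The called genes differed in how far the 2 pairs matched. For the 65 higher genes the median difference was 1.44 without sunitinib and 1.24 with it, and 42 of them passed 2-fold in both pairs. For the 63 lower genes the medians were -1.84 and -0.62, and 6 passed 2-fold in both pairs, namely TXNIP, ARRDC4, TMT1A, INSIG1, TENT5A and TMSB15A. For TMT1A and TMSB15A both arrays of the pair with sunitinib were under the floor. With levels under the floor set to it, 32 of the 65 and 4 of the 63 passed in both pairs, the 4 being TXNIP, ARRDC4, INSIG1 and TENT5A. All 63 lower genes had the larger difference in the pair without sunitinib, against 39 of the 65 higher genes. The difference between the pairs was not tested. In 53 of the 63 lower genes the sunitinib array was below the untreated array, which was so in 55.6% of all genes kept. On the dihydroberberine array 2 controls, Alu and 18S, also read low. Alu read 14.42 there against 14.82 untreated, 14.86 with sunitinib and 14.86 in the combination. The 18S control, a mean over its probe sets, read 13.73 against 14.36, 14.12 and 14.15. Background probes with 20 G or C bases read highest there, at 7.15 against 6.70, 6.99 and 6.95. The ACTB 5 prime control also read highest there, at 14.14 against 13.90, 13.78 and 13.93. The part of these controls in the lower genes of that array was not tested. Across all 10958 genes the differences of the 2 pairs, which share no array, correlated with a Pearson r of 0.45, a description over genes that share the same 4 arrays.

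**Figure D4:**
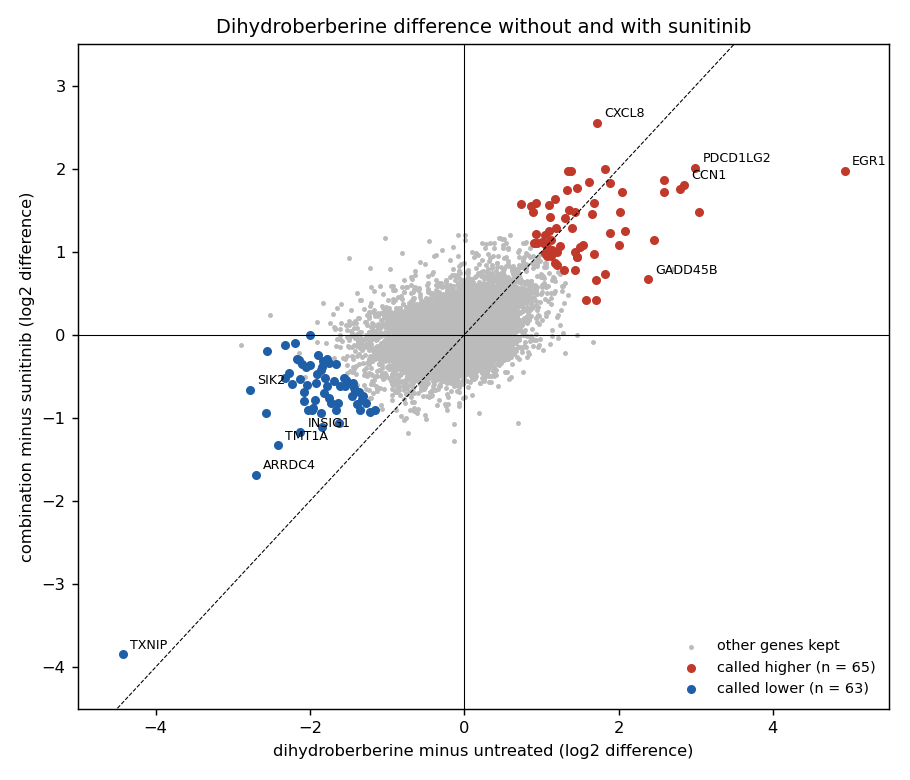
Difference of dihydroberberine alone from untreated (x axis, log2) against the difference of the combination from sunitinib (y axis, log2) for the 10958 genes kept, with called higher genes in red (n = 65), called lower genes in blue (n = 63) and equal differences on the dashed line. The higher genes lie on both sides of the dashed line, while the lower genes lie above it, at a median of -1.84 on the x axis and -0.62 on the y axis.

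Several probe sets of a gene offered a check within the arrays. Of the called genes with 2 or more probe sets at the floor, all 43 higher genes and 33 of 36 lower genes had the same sign in every such probe set, the exceptions being UNKL, TRA2A and FZD5, against 70.8% of the 6406 kept genes of this kind. The called genes were chosen for a difference of at least 1 in 1 of these probe sets. Their share is therefore not comparable with that of all kept genes. With the mean of all probe sets in place of the brightest, 49 genes were called higher and 31 lower. Of the called genes 18 higher and 17 lower had at least 1 array under the floor.

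Cell identity was checked on marker genes. The keratins KRT8, KRT18 and KRT19 read between 13.39 and 14.39 on every array, and AKR1B10 and AKR1C1, which A549 cells express strongly, between 13.98 and 14.67. EPCAM, CDH1, SFTPD, NKX2-1 and FOXA2 were under the floor on all 4 arrays, while other markers of lung epithelium were above it on all 4, with SFTPC between 7.73 and 8.06, NAPSA between 7.67 and 7.76 and SFTPB between 6.79 and 7.23. FOXA1, an epithelial pioneer factor, read 11.53 untreated and 10.93 with sunitinib against 10.01 with dihydroberberine and 10.39 with both drugs (-0.92 over all probe sets, -0.84 without the dihydroberberine array and -0.73 without the untreated array), and CPS1, carbamoyl phosphate synthetase, 13.18 untreated and 12.58 with sunitinib against 12.45 with dihydroberberine and 11.40 with both drugs. In all 3 of 11 kept A549 markers did not overlap on the higher side and 4 on the lower side. Over all genes kept the shares were 19.5% and 22.0%. Of 14 markers of other cell types on the array 5 were kept and 0 of them did not overlap. Among these 5, HBB lay between 8.09 and 8.27, CD68 between 7.06 and 8.42 and VWF between 7.28 and 7.50. Levels in this range, which SFTPC, NAPSA and SFTPB share, do not tell lung epithelium from other cells. PTPRC, the leukocyte marker CD45, lay between 3.81 and 3.92. CD14 read 8.82 untreated and 6.27 with sunitinib against 6.75 with dihydroberberine and 5.76 with both drugs, highest in untreated cells. The log2 of the summed level of these 14 markers was 10.80 untreated, 10.27 with sunitinib, 10.56 with dihydroberberine and 10.13 with both, and its part in the results above was not tested.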

How the data were processed

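RNA of A549 cells from 4 conditions was measured on 4 arrays, 1 each. Per the submitters' processing notes, Affymetrix Expression Console made the deposited log2 values, 1 per probe set. How probes were summarized, how arrays were scaled to each other and which version was used is not given in the sources used here. An Agilent array is named in the design text and Cy3 in the label field, while the labels' protocols describe a biotin kit of Affymetrix and the probe set names and control probes are of that kind. The log2 scale was read off the range of the values, 3.01 to 15.4.

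Groups were taken from the treatment labels. Of 49293 gene probe sets 44988 had 1 gene symbol in a platform annotation table, 1832 had several and 2473 had none, and only the first kind was used. Each gene was represented by the probe set of highest mean over the 4 arrays. For a fold written as "at least", levels under the floor were first set to the floor. The floor is no detection limit, since background probes read as high.

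The members and the 35 gene lists (710 genes) were chosen with earlier results of these data known. Named genes were the 16 highest and 16 lowest called genes with the same sign in every probe set at the floor, up to 4 members per list whose arrays did not overlap, and the 2 genes on either side of the limit. Tables were computed with pandas 2.3.3, and an additive fit of both drugs with limma 3.58.1 on the log2 values was an alternative. Alternatives were the floor, the probe set rule, quantile normalization, values raised to the floor, the size of a call and leaving out each array. With 1 array per condition, the error in that fit is the departure from additivity and not a spread between replicates. The scripts were checked on data with known answers.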

Additional observations from a re-analysis of the deposited data

Results flagged for a closer look

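In 13 gene lists the median difference made by dihydroberberine had opposite signs without and with sunitinib, and the difference between these pairs was not tested. The change of the median, with sunitinib minus without, was -0.33 for MondoA targets and arrestins, -0.17 for fatty acid oxidation and PPAR targets, -0.43 for the ATF4 pathway, -0.20 for metallothioneins, -0.44 for extracellular nucleotide handling, -0.13 for A549 markers and -0.35 for markers of other cell types. It was 0.14 for AMPK and mTOR control, 0.25 for endoplasmic reticulum chaperones, 0.22 for NRF2 targets, 0.17 for G1 cyclins and inhibitors, 0.27 for the BCL2 family and caspases and 0.10 for drug efflux pumps. Most of these medians were small. The ATF4 list had the largest number of members, with 21 of 27 positive without sunitinib and 12 of 27 with it. Of all 10958 genes kept, 5139 were positive without sunitinib and 5556 with it.

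Probe sets with several gene symbols or none were left out of the comparisons. Of the 2067 among them that reached the floor, 12 met the rule for higher genes and 15 that for lower genes, with mean differences from -1.73 to 1.66.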

How the results depend on the processing

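Each count of called genes kept within 1.5 times of 65 higher and 63 lower with no filter, a floor at the 75th percentile, all 4 arrays at the floor, quantile normalization, values raised to the floor, and overlap allowed. With the mean of all probe sets 31 genes were called lower, 29 of them among the 63; the cause was not tested. At a size of 1.5-fold with no overlap 316 genes were higher and 400 lower. With 2-fold asked in both pairs 43 were higher and 6 lower, and with levels under the floor also set to it, an alternative chosen after seeing the data, 33 and 4. The limma additive fit with 1 residual degree of freedom called 0 genes higher and 0 lower at an adjusted p under 0.05 (smallest 0.116), and 687 and 635 at an unadjusted p under 0.05. Leaving out 1 array gave 77 to 101 higher and 43 to 306 lower genes, where fewer arrays must not overlap. Without the combination array the counts were 101 and 306, and without the sunitinib array 134 were lower. Of the genes called without the dihydroberberine array, 45 of 77 higher and 21 of 45 lower were among those reported. Another filter leaves the values of a gene as they were. Called genes do not overlap, so raising to the floor or leaving out 1 array could not turn their direction either. With the mean of all probe sets or quantile normalization, which could, none of the 65 and 63 did where it had a value. A value in every setting was held by 45 and 43 of them. Among the 35 list medians, 21 kept their sign in all settings. The labels carry no replicate numbers, and the additive fit, with sunitinib as a term, is the analysis that pairs the arrays by sunitinib. The number of arrays limits the precision.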

Other observations

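Some called genes outside the lists, named after their values were seen, encode receptors and growth factor proteins. EPGN, an EGF receptor ligand, read 9.99 untreated and 9.51 with sunitinib against 11.30 with dihydroberberine and 10.91 with both drugs, and its 8 probe sets at the floor differed by 1.21 to 1.45. EPHA2, an ephrin receptor, read 8.92 and 8.74 against 9.87 and 9.85. TNFRSF12A, the receptor of TWEAK, read 11.05 and 10.74 against 12.25 and 11.73. PAPPA, a protease of IGF-binding proteins, read 9.45 and 8.19 against 10.32 and 9.73, and IGFBP7 read 8.49 and 8.66 against 9.93 and 9.44. SOX9, a transcription factor, read 10.15 and 9.79 against 11.16 and 10.91. Without the sunitinib array the difference was under the size of a call for PAPPA (0.57 in place of 1.20), SOX9 (0.88), EPHA2 (0.93) and TNFRSF12A (0.94). Without the dihydroberberine array it was under it for TNFRSF12A (0.83), IGFBP7 (0.87), PAPPA (0.91) and SOX9 (0.94), and over all probe sets for IGFBP7 (0.41), EPHA2 (0.94) and PAPPA (0.98).

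On the lower side, S1PR3, a sphingosine 1-phosphate receptor, read 9.07 untreated and 8.36 with sunitinib against 7.41 and 7.46 with dihydroberberine alone and with both drugs, the 2 values close together, and differed by -0.92 without the untreated array. GPAM, the mitochondrial glycerol-3-phosphate acyltransferase, read 8.66 and 9.05 against 6.96 and 8.50. Its difference of -1.12 was -0.36 without the dihydroberberine array, -0.93 without the sunitinib array and -0.58 over all probe sets. HIRA, a histone chaperone, read 9.91 and 9.29 against 7.72 and 9.20, SETD1B, a histone methyltransferase, 9.51 and 9.55 against 7.19 and 9.42, and CBX2, a Polycomb protein, 10.38 and 10.34 against 8.57 and 9.82. Without the dihydroberberine array HIRA differed by -0.41, SETD1B by -0.11 and CBX2 by -0.54, so that the calls of these 3 rested on it. Over all probe sets HIRA differed by -0.76 and CBX2 by -0.40, and without the untreated array HIRA by -0.83. Outside the called genes, CUL3, a scaffold of ubiquitin ligases, read 11.20 and 11.07 against 8.68 with dihydroberberine and 11.31 with both drugs. It was low on the dihydroberberine array only, and its arrays overlapped.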
